A study of Homo sapiens with 2 samples.

Results

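Peaks of control PANC-1 cells that lay inside protein-coding genes, away from the genes' ends, were followed to the same positions in inflachromene-treated cells. A control peak was taken when its summit lay within a protein-coding gene of the RefSeq annotation of GRCh38 and more than 1000 bp from both ends of every protein-coding gene and every long non-coding RNA gene. By this rule 3241 of the 15186 DMSO peaks on chromosomes 1 to 22 and X (21.3%) were inside genes. Of the other DMSO peaks, 8220 lay within 1000 bp of an end of a protein-coding gene, here called gene ends, and 3368 lay between genes. A further 357 lay inside a gene but near an end of a long non-coding RNA gene.

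The data came from ChIPmentation, chromatin immunoprecipitation in which the Tn5 transposase inserts sequencing adapters into the immobilised chromatin, in PANC-1, a long-established cell line of human pancreatic ductal adenocarcinoma. One sample was treated with inflachromene, a small molecule that binds the chromatin proteins HMGB1 and HMGB2, and 1 with its solvent DMSO. Both were crosslinked with 15 mM EGS for 30 min and 1% formaldehyde for 10 min and quenched with 125 mM glycine. The sources used here do not give the antibody's target, the dose or how long the cells were treated, so a peak is reported as a called position and not as binding of a named protein. The numbers of fragments at summits, the pileup, were recovered from the deposited fold enrichment and p-value of each peak. With 1 sample per treatment there is no replicate check, no test and no p-value. Every difference compares these 2 libraries, and the 95% intervals (Clopper-Pearson for shares, Poisson for fragment numbers, both exact) cover counting error only.

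Transcription of many human genes can begin at more than 1 place, and starts that lie within the annotated gene are called alternative or internal promoters. Introns also hold enhancers, which are bound by transcription factors and can act on the gene that contains them or on others. Promoters are often rich in G and C and carry short words read by transcription factors, among them the GC box read by SP and KLF factors and the CCAAT box read by NF-Y.

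Peaks inside genes that lay at an annotated start of a further transcript of the same gene were called in both libraries more often than those away from starts, as given below. The 250 bases before such a start are therefore printed for 8 of them, read from RefSeq (GRCh38.p14) on the strand of the gene, from 5′ to 3′, with the start following the last base. Capitals mark exact matches, on either strand, to any of 9 words, which are GGGCGG for SP and KLF factors, CCGGAAG for ETS factors, CCAAT for NF-Y, TGACGTCA for the cAMP response element, TGANTCA for AP-1, GGAATG for TEAD factors, CACGTG for the E-box, TGTGGT for RUNX factors and TATAAA for the box of that name. No word contains another. The first 4 starts had a peak in both libraries. They are those of GRSF1 (chr4:70839891-70840140, minus strand), RUBCN (chr3:197736905-197737154, minus strand), ANO10 (chr3:43622012-43622261, minus strand) and FAM117A (chr17:49764132-49764381, minus strand).
GRSF1: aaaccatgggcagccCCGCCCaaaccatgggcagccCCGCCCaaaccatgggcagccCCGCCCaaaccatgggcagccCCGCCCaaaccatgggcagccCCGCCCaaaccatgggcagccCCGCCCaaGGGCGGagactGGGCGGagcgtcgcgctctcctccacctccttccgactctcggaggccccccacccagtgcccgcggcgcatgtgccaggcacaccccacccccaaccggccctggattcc
RUBCN: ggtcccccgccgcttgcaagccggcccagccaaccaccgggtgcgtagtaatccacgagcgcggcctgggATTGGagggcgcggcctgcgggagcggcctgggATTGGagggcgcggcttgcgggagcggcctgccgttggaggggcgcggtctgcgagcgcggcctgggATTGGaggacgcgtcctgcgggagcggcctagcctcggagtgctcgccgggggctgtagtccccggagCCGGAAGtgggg
ANO10: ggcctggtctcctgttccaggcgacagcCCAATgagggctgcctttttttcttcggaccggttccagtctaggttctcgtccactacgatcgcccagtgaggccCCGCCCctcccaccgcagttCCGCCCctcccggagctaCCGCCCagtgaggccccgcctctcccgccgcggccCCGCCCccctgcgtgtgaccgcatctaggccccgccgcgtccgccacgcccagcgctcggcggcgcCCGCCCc
FAM117A: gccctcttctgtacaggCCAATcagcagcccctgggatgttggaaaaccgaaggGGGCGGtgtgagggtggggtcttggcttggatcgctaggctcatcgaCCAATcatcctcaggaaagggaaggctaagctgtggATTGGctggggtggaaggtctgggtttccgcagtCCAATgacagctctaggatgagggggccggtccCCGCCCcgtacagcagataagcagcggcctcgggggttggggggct

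GRSF1 encodes a mitochondrial RNA-binding protein. Its internal start carried 8 copies of the GC box word, 6 of them in a repeat, and the summit lay 205 bp upstream of the start with 62 fragments in inflachromene (47.5 to 79.5) and 105 in DMSO (85.9 to 127). RUBCN encodes Rubicon, an inhibitor of autophagosome maturation, and its window held 3 CCAAT words and 1 ETS word. The RUBCN summit held 65 fragments in inflachromene and 93 in DMSO. ANO10, a gene of the anoctamin family, had 66 fragments in inflachromene and 85 in DMSO. Its window held 5 GC box words and 1 CCAAT word. FAM117A had 49 fragments in inflachromene and 77 in DMSO beside 4 CCAAT words and 2 GC box words. At all 4 starts the peak was lower in inflachromene. They were chosen as shared peaks strong in DMSO, a choice that favours a lower value in the other library.

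The next 4 starts had a DMSO peak and no inflachromene peak. They are those of ZNF320 (chr19:52897695-52897944, minus strand), TBC1D14 (chr4:6986959-6987208, plus strand), CLCN3 (chr4:169659990-169660239, plus strand) and MAPRE2 (chr18:35041163-35041412, plus strand).
ZNF320: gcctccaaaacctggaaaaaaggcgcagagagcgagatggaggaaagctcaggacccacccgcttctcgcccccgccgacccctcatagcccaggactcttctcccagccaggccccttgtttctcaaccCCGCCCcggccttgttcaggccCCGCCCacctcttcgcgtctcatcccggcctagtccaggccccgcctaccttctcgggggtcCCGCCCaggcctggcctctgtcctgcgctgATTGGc
TBC1D14: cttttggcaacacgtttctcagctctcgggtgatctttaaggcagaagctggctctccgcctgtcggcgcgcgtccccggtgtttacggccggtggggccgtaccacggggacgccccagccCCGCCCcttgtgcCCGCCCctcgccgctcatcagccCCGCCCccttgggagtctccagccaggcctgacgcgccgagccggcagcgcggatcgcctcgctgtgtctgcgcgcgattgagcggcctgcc
CLCN3: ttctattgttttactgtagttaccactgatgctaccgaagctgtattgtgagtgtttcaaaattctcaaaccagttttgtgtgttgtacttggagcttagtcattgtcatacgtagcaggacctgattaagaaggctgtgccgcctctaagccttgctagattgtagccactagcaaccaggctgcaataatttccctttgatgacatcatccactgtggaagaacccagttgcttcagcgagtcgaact
MAPRE2: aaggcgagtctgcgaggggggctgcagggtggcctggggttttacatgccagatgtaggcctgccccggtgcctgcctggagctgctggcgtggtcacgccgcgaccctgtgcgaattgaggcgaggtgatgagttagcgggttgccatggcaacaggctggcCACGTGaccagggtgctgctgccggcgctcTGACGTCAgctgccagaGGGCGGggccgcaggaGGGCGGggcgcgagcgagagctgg

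ZNF320, a zinc finger gene, had 34 fragments in DMSO at a summit 28 bp upstream of the start, and its window held 3 GC box words and 1 CCAAT word. TBC1D14, encoding a protein with the domain of Rab GTPase-activating proteins, had 26 fragments and 3 GC box words. CLCN3, a chloride channel family gene, had 27 fragments, and none of the 9 words was found in its window, of which 43.6% was G or C. MAPRE2, encoding a protein of growing microtubule ends, had 20 fragments, with a cAMP response element, an E-box and 2 GC box words. The GC box and CCAAT words were thus found at starts with and without an inflachromene peak. Among the printed starts, the ETS word was seen only at RUBCN, and the cAMP response element and E-box only at MAPRE2. A match describes the letters of a window and does not show a site in use.

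Of the peaks inside genes, 1633 (50.4%, 48.65 to 52.1) were overlapped by an inflachromene peak by at least 1 bp and are called shared, and 1608 were not. The share was 64.5% over all DMSO peaks, 76.2% (75.3 to 77.1) at gene ends and 49.6% (47.9 to 51.3) between genes. Peaks inside genes were weaker than those at gene ends. Their summits held a median of 20 fragments, against 27 at gene ends, with a median fold enrichment over the local background of 6.92 against 9.0 and a median width of 251 bp against 351 bp. They ranged from 7 to 278 fragments, with the highest number in ATP9B, a gene of the phospholipid flippase family, which is named here after its values were seen. That summit held 153 fragments in inflachromene and 278 in DMSO, over a local background of 18.0 fragments in DMSO.

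Shared peaks inside genes were the stronger ones. Their median was 26 fragments, 7.99-fold enrichment and 332 bp of width, and that of the peaks without an inflachromene peak was 17 fragments, 6.25-fold and 203 bp. No peak with more than 71 fragments or above 13.45-fold in DMSO was without an inflachromene peak. The local background was also higher at the shared peaks, with a median of 2.32 fragments, against 1.65 at the others. Its part in the overlap was not tested beyond the alternative given in the closing section.

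To set peaks of like strength side by side, all DMSO peaks were divided into 5 groups of equal size by fold enrichment, with bounds at 5.94, 7.19, 8.74 and 11.3, and the groups hold unequal numbers of peaks inside genes. From the weakest to the strongest group, 29.0%, 38.7%, 56.8%, 73.9% and 95.7% of the peaks inside genes were shared. The corresponding shares at gene ends were 36.9%, 53.2%, 70.6%, 89.9% and 99.0%, above those inside genes in each group, with intervals that did not overlap in any of the 5. When the gene-end shares were weighted to the strength of the peaks inside genes they gave 62.0%, against 50.4% inside genes. With groups of −log10 p or of pileup in place of fold enrichment, gene ends gave 60.5% and 64.6%. The peaks between genes gave 49.4% by fold enrichment, close to those inside genes.

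**Figure D1:**
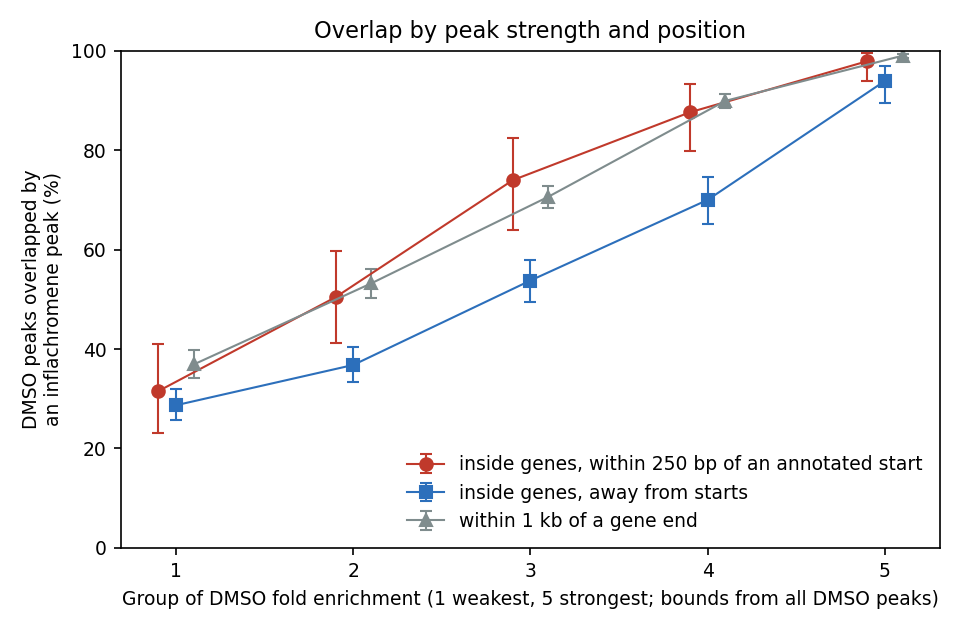
Share of DMSO peaks overlapped by an inflachromene peak (vertical axis, percent, with exact 95% intervals) in 5 groups of DMSO fold enrichment (horizontal axis, weakest to strongest), for peaks inside genes within 250 bp of an annotated start, peaks inside genes away from starts, and peaks at gene ends. In group 3 the shares are 74.0%, 53.8% and 70.6%, and in the strongest group all 3 lie between 93.9% and 99.0%.

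Annotated transcript starts divided the peaks inside genes. Within 250 bp of a start of the gene that contains them lay 573 peaks (17.7%), and 397 of these (69.3%, 65.3 to 73.0) were shared. Of the 2668 peaks farther away or in genes without a listed start, 1236 (46.3%, 44.4 to 48.2) were shared. They include all 88 peaks inside genes on chromosome 8, for which no start was listed, and are called away from starts. Peaks at a start were stronger, with a median of 25 fragments, 7.93-fold and 334 bp, against 19 fragments, 6.77-fold and 237 bp for the others. At matched strength the shares were 59.9% at a start and 48.4% away from starts, against 62.8% for gene-end peaks that lay at a start. From the weakest to the strongest group, the shares at a start were 31.5%, 50.4%, 74.0%, 87.6% and 97.9%, and away from starts 28.7%, 36.8%, 53.8%, 70.0% and 93.9%. The intervals were apart in groups 2, 3 and 4 and overlapped in groups 1 and 5.

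The share was lower at more than 1 kb from a start than nearer to it, over the 2722 peaks whose gene had a listed start. Here the distance is to the nearest listed start of any gene, which beyond 250 bp need not be the gene around the peak. It was 60.6% (52.6 to 68.3) of 160 peaks at 250 to 1000 bp, 48.8% of 688 at 1 to 10 kb, 42.1% of 1199 at 10 to 100 kb and 44.1% of 102 beyond 100 kb. The median pileup also fell over these classes, from 25 fragments within 250 bp to 16 beyond 100 kb. Of 4364 distinct starts inside genes and away from gene ends, 606 (13.9%) had a DMSO peak within 250 bp.

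**Figure D2:**
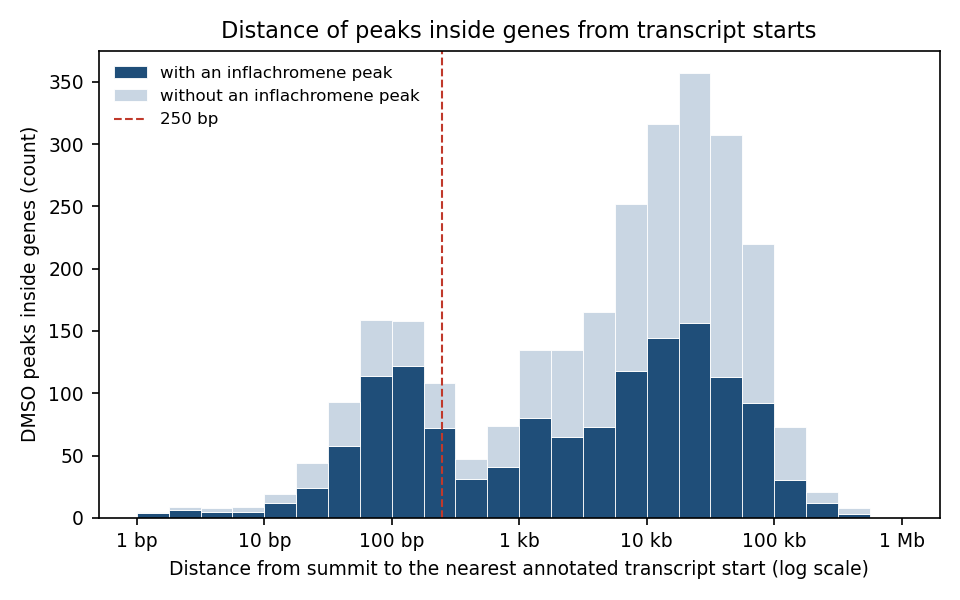
Number of DMSO peaks inside genes (vertical axis) by distance of the summit from the nearest annotated transcript start of any gene (horizontal axis, log scale). Bars are divided into peaks with and without an inflachromene peak. The counts form 2 humps, 1 within about 250 bp of a start, where 397 of 573 peaks are shared, and a larger one between 10 and 100 kb, where 505 of 1199 are shared.

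The windows around these starts, 250 bases before to 50 after, differed in composition. The part of composition in the word shares given below was not tested. At starts with a shared peak the median GC content was 67.3%, at starts with a DMSO peak alone 68.5%, at the 3758 other internal starts 52.5% and over all 34943 listed starts 58.7%. The GC box word was present in 77.6% of windows with a shared peak, 69.3% with a DMSO peak alone, 29.9% of other internal starts and 44.9% of all starts. The CCAAT word was present in 46.3% of windows with a shared peak, against 27.3% with a DMSO peak alone, 30.9% at other internal starts and 34.6% at all starts. The ETS word was present in 16.9% of windows with a shared peak, 10.8% with a DMSO peak alone, 3.78% at other internal starts and 10.2% at all starts. The TATA box word was rarer at the peaks, in 2.77% of windows with a shared peak and 2.27% with a DMSO peak alone, against 14.2% at other internal starts and 11.6% at all starts. The TEAD word was present in 8.82% of windows with a shared peak, 8.52% with a DMSO peak alone, 16.4% at other internal starts and 14.0% at all starts. For the RUNX word these shares were 10.6% with a shared peak, 7.39% with a DMSO peak alone, 15.4% at other internal starts and 13.1% at all starts. The AP-1 word was present in 4.53% of windows with a shared peak, 6.25% with a DMSO peak alone, 9.42% at other internal starts and 7.72% at all starts. The E-box was present in 7.3% with a shared peak, 10.2% with a DMSO peak alone, 5.14% at other internal starts and 7.23% at all starts. The cAMP response element was present in 3.27% with a shared peak, 2.27% with a DMSO peak alone, 0.825% at other internal starts and 1.84% at all starts.

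Starts with the CCAAT word had a shared peak in 79.3% of 232 cases (73.5 to 84.3), and starts without it in 62.5% of 341 (57.1 to 67.6). The peaks with the word were also stronger, with a median of 29.5 fragments against 23. In the 2 weaker groups of fold enrichment combined, 52.2% (39.8 to 64.3) with the word and 36.6% (29.2 to 44.6) without it were shared, with intervals that overlap. In group 3 the shares were 76.3% with the word and 72.4% without it, and in the 2 stronger groups 95.2% with it and 91.8% without it. The difference was thus about as large in the 2 weaker groups as over all starts, and smaller in the other groups. In the 2 stronger groups nearly all peaks were shared with or without the word.

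At the shared peaks inside genes the summit usually held fewer fragments in inflachromene. The median was 22 fragments in inflachromene and 26 in DMSO, and the median ratio of inflachromene to DMSO was 0.846, with the middle 50% of peaks between 0.719 and 1.0. Fewer fragments were found in inflachromene at 1150 peaks, equal numbers at 99 and more at 384. It was at least 1.5-fold lower at 286 (17.5%), against 18.3% of all shared DMSO peaks, and at least 1.5-fold higher at 35 (2.14%), against 1.46%. At the 285 peaks with a mean of 40 or more fragments in the 2 libraries, the median ratio was 0.804 and 84.2% were lower, which did not set them apart from gene ends, with 0.8045 and 85.6% of 1630 peaks. The lowest local background of a peak, a measure that follows sequencing depth, was 0.683 fragments in inflachromene and 0.651 in DMSO.

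**Figure D3:**
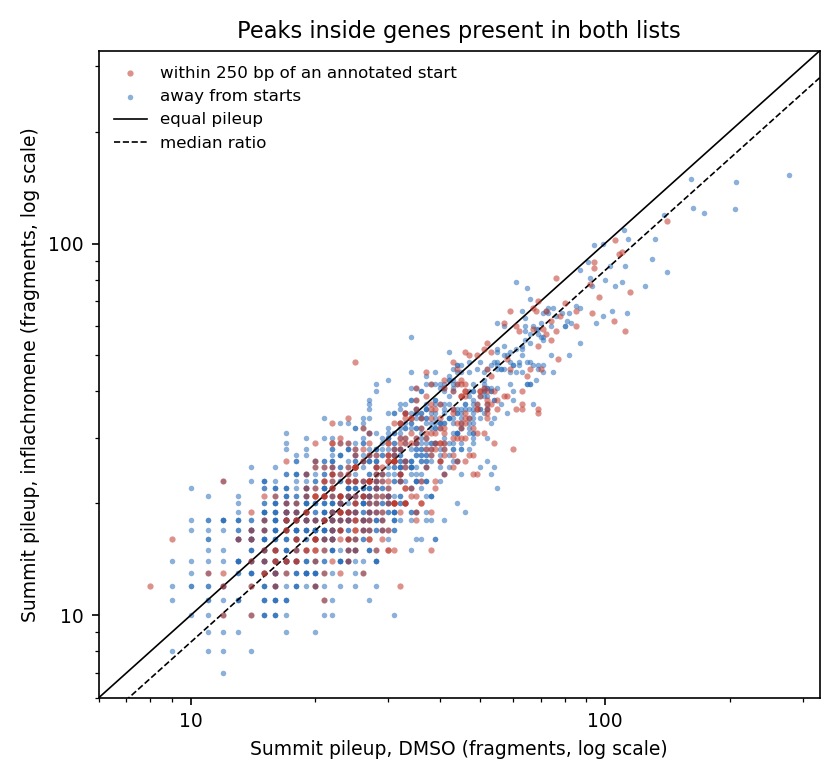
Fragments at the summit in inflachromene (vertical axis) against DMSO (horizontal axis), both on log scales, for the 1633 shared peaks inside genes, with the line of equal pileup and the line of the median ratio, 0.846. Peaks at a start and away from starts lie together along the median line, and 1150 of the 1633 lie below the line of equal pileup.

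The 8 shared peaks with the highest DMSO fold enrichment were named for strength in DMSO, a choice that favours a lower value in the other library. RIMBP2, encoding a scaffold protein of presynaptic terminals, had 89 fragments in inflachromene (71.5 to 110) and 91 in DMSO (73.3 to 112) in a peak on chromosome 12 (130646088 to 130646425), with 27.7-fold and 29.0-fold enrichment. FOXK2, a forkhead transcription factor gene, had 100 fragments in inflachromene and 99 in DMSO on chromosome 17 (82586215 to 82586534). In these 2 peaks the libraries differed by 2 fragments or fewer. HSD17B12, an enzyme gene of very long chain fatty acid synthesis, had 66 fragments in inflachromene and 72 in DMSO. STMN3, encoding a stathmin that destabilises microtubules, had 103 in inflachromene and 132 in DMSO. ST6GALNAC5, a sialyltransferase gene, had 51 in inflachromene and 42 in DMSO, in a narrow peak of 189 bp that lay 104 kb from the nearest listed start. GRSF1, RUBCN and ANO10, whose starts are printed above, complete the 8. Of these 8 peaks 6 were lower in inflachromene, and those of FOXK2 and ST6GALNAC5 were higher.

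Of the DMSO peaks without an inflachromene peak, the 8 with the highest fold enrichment held 20 to 35 fragments at 11.9-fold to 13.5-fold. TPRA1, encoding a membrane protein with several transmembrane segments, led with 35 fragments (24.4 to 48.7) on chromosome 3 (127575083 to 127575382). It was followed by ZNF320 and TBC1D14, described above, and by NDUFAF6, an assembly factor gene of respiratory complex I, with 28 fragments. YAE1 had 22 fragments and ABCB11, the gene of the bile salt export pump, had 20. GSN, encoding the actin-severing protein gelsolin, had 24, and ADARB1, encoding an adenosine deaminase that edits RNA, had 29. Only ZNF320 and TBC1D14 of these 8 lay within 250 bp of a listed start. No start is listed here for any gene of chromosome 8, where NDUFAF6 lies, so its distance is not given.

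Among shared peaks inside genes with a mean of 40 or more fragments, those with the most extreme ratios were named, so the ratios describe the choice. The 4 lowest were all at an internal start. Of the 285 peaks of this size, 95 lay at a start. Their median ratio was 0.8, against 0.804 for the 190 away from starts. SNX8, a sorting nexin gene, had 28 fragments in inflachromene (18.6 to 40.5) and 60 in DMSO (45.8 to 77.2), a ratio of 0.467. JMJD1C, a gene of the jumonji family, had 58 (44 to 75) in inflachromene and 112 (92.2 to 135) in DMSO at a summit 4 bp from the start. SEMA3C, encoding a secreted semaphorin, had 35 in inflachromene and 69 in DMSO. YJU2B had 36 in inflachromene and 69 in DMSO. In each of these 4 the intervals of the 2 libraries did not overlap.

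The 4 highest ratios were less extreme. ABCC1, the gene of a drug efflux pump, had 56 fragments in inflachromene (42.3 to 72.7) and 34 in DMSO (23.5 to 47.5), a ratio of 1.65, and was the only peak of this size at least 1.5-fold higher in inflachromene. CACNG8, encoding an auxiliary subunit of AMPA receptors, had 79 in inflachromene and 61 in DMSO over a high local background of 13.6 fragments in DMSO. Its summits in the 2 libraries lay more than 250 bp apart, so these numbers belong to different positions. With 50% reciprocal overlap it was not shared. ANAPC5, a subunit gene of the anaphase-promoting complex, had 45 in inflachromene and 37 in DMSO at an internal start. ST6GALNAC5, given above, completes the 4. The intervals of the 2 libraries overlapped at all 4.

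At the limit of 1000 bp, the 2 peaks just inside lay in NOL4L and FBXW4, each 1001 bp from a gene end, with 19 DMSO fragments each and no inflachromene peak. The 2 just outside lay 998 bp from an end. That of SLC35C1, a GDP-fucose transporter gene, had 23 fragments in inflachromene and 25 in DMSO, and that of NAA50, an N-terminal acetyltransferase gene, had 18 in DMSO alone.

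The 3241 peaks lay in 2491 genes, 13.3% of the 18725 protein-coding genes longer than 2 kb, and 66 peaks lay in 2 overlapping genes. A single peak was found in 1954 genes, 2 in 366, 3 in 101 and 4 to 8 in 70. At least 1 peak was shared in 1426 of these genes and none in 1065. The share of genes with a peak rose with length, from 3.47% of genes of 2 to 10 kb to 28.8% of those over 300 kb. Per Mb of gene the number fell over the same classes, from 6.58 to 0.952 peaks. The shared fraction was 60.0%, 55.0%, 52.9%, 46.1% and 43.75% of peaks from the shortest to the longest of the 5 length classes.

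Peaks inside genes were more frequent towards the start of the gene, most clearly those at an internal start. Over the 2664 peaks in 1 gene of known strand, 24.8% lay in the first of 5 equal stretches of the gene and 15.7% in the last. The shared fraction was 55.9% in the first stretch and 43.3% in the last, with median pileups of 22 and 19 fragments. Of the 557 peaks at an internal start, 40.4% lay in the first stretch and 5.03% in the last. Of the 2107 peaks away from starts, 20.65% lay in the first stretch and 18.5% in the last, a nearly even spread. Away from starts the shared fraction was 47.8% in the first stretch and 41.3% in the last, with intervals that overlapped.

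The peak at the gene's own start did not set apart the peaks inside it. Of 2063 genes with known strand, 953 also had a DMSO peak at their start, and it was shared in 744 and not in 209. Peaks inside the genes whose start peak was shared were themselves shared in 50.9% of 968 cases (47.7 to 54.1), and those inside genes whose start peak was not shared in 50.9% of 283 (44.9 to 56.9). In 321 genes the start peak was shared and no peak inside was, and in 129 genes a peak inside was shared and the start peak was not. Neighbouring peaks in 1 gene formed 807 pairs with a median gap of 21057 bp. Both were shared in 203 pairs (25.15%), neither in 223 (27.6%), and 1 of the pair in 381 (47.2%). Whether neighbours go together beyond the 50.4% shared over all peaks inside genes was not tested.

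The 8 genes with the most peaks inside held 6 to 8 each. PRKAG2, encoding a regulatory subunit of AMP-activated protein kinase, had 8 over 321 kb, of which 6 were shared, and the strongest held 36 fragments in inflachromene and 50 in DMSO. ABR had 7, of which 2 were shared. Both were its strong ones, with 38 and 60 fragments in inflachromene against 60 and 57 in DMSO, while the other 5 held 12 to 20 in DMSO. GRK5, a G protein-coupled receptor kinase gene, had 7 with 3 shared, and MAML3, a coactivator gene of the Notch pathway, had 6 with 2 shared. All 6 peaks of RERE, a transcriptional co-repressor gene, were shared, and it was the only 1 of the 70 genes with 4 or more peaks of which that was true. In 62 of the 70 some were shared and in 7 none.

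ACTN4, encoding an actin crosslinking protein, had 6 peaks in 83.9 kb, of which 5 were shared. Its strongest had 61 fragments in inflachromene and 95 in DMSO, and the median local background there was 11.9 fragments against 1.97 over all peaks inside genes. NAV2, encoding a neuron navigator, had 6 with 2 shared. ANXA8, an annexin gene with near-identical copies nearby, had 6 with 3 shared, and reads cannot be safely assigned among such copies. Its listed span of 523.8 kb also holds SYT15B and pseudogenes such as BMS1P2. The place of ANXA8 among the 8 genes rests on that span, and its peaks need not belong to ANXA8 itself. ACTN4 lies on chromosome 19, which had the most peaks per length of gene interior, 10.7 per Mb against 2.70 over all chromosomes, and the highest median background, 2.49 fragments. On chromosome 19, 61.3% (55.6 to 66.9) of 300 peaks were shared. Over the chromosomes this share ran from 33.3% on chromosome 18 to 65.1% on X, where the median background was 1.58 fragments. It was 62.0% on chromosome 20.

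**Figure D4:**
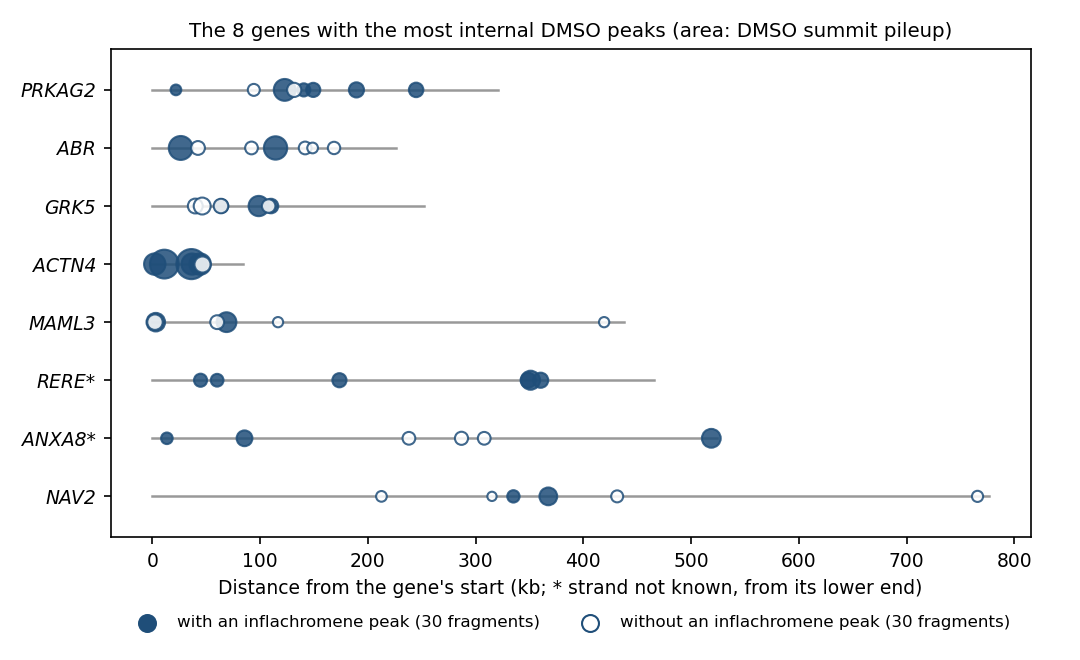
Position of each DMSO peak in the 8 genes with the most peaks inside (horizontal axis, kb from the gene's start, or from its lower coordinate for RERE and ANXA8), with circle area in proportion to the DMSO summit pileup. Filled circles are shared and open circles are not. The line of ANXA8 is its listed span, which also holds other genes. All 6 peaks of RERE are filled, against 2 of 7 in ABR.

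Genes of 17 lists were compared with genes of their own length, since long genes hold peaks more often. For each list the number of genes with a peak inside was set beside the number that results when each gene is given the share of its length class over all protein-coding genes, here called the length value. Against the 13.3% of all genes, 3.57% to 63.0% of a list had a peak. Of the 454 listed genes 122 had one, and 12 of the 17 lists lay above their length value. Each of 16 lists is described. Over all 2491 genes with a peak inside, at least 1 was shared in 57.25%. Several lists hold few such genes, and whether they differ from this share was not tested. Of the 183 peaks in listed genes, 54.1% (46.6 to 61.5) were shared, an interval that includes the 50.4% of all peaks inside genes.

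Chromatin and transcription co-regulators had a peak in 17 of 27 genes, against a length value of 6.4, and in 11 of the 17 at least 1 was shared. KAT6B, a histone acetyltransferase gene, had 94 fragments in inflachromene and 108 in DMSO at an internal start. KDM2A, a histone demethylase gene, had 60 in inflachromene and 85 in DMSO, also at an internal start. ARID1B, a subunit gene of the SWI/SNF remodelling complex, had 77 in inflachromene and 93 in DMSO. CHD2, a chromatin remodeller gene, had 60 in inflachromene and 64 in DMSO. All 4 peaks were called in both libraries with fewer fragments in inflachromene. They were named for strength in DMSO, a choice that favours both outcomes. In 6 of the 17 genes no peak was shared, CHD7, SMARCA4 and ARID1A among them.

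Integrin and focal adhesion genes had a peak in 13 of 27, against 5.4, and 7 shared at least 1. ITGA6, an integrin subunit gene, had 25 fragments in each library. PXN, encoding the adaptor paxillin, had 33 in inflachromene and 43 in DMSO. NEDD9, a scaffold gene, had 19 and LIMA1, an actin-binding protein gene, had 17 in DMSO, and neither peak was shared.

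In the list of YAP and TEAD targets and the Hippo pathway, 11 of 30 genes had a peak, against 5.1, and 7 shared at least 1. VGLL4, encoding a repressor that competes for TEAD factors, had 3 peaks, all shared. Its strongest held 62 fragments in inflachromene and 81 in DMSO. PTPN14, a phosphatase gene that restrains YAP, had 22 in inflachromene and 29 in DMSO. In MYOF and in WWTR1, the gene of the co-activator TAZ, the peak with the highest fold enrichment (29 and 18 fragments) was in DMSO alone, although 2 of 4 peaks in MYOF and 1 of 4 in WWTR1 were shared. The MYOF peak with the most fragments was among the shared ones, with 33 in inflachromene and 40 in DMSO. AP-1 and immediate early genes, most of them short, had a peak in 6 of 23, against 1.4, with 5 sharing at least 1. ATF3, a transcription factor gene of the stress response, had 46 in inflachromene and 69 in DMSO. EGR2, an early growth response gene, had 29 in inflachromene and 34 in DMSO, and IER2 had 60 in inflachromene and 74 in DMSO over a local background of 11.6 fragments.

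Receptor tyrosine kinase and ligand genes had a peak in 10 of 25, against 4.8, and 6 shared at least 1. EGFR, the gene of the epidermal growth factor receptor, had 4 peaks of which 2 were shared, and the strongest held 31 fragments in inflachromene and 44 in DMSO. NRG1, encoding the ligand neuregulin, had 12 in inflachromene and 25 in DMSO. The strongest of 5 peaks in IGF1R, the gene of an insulin-like growth factor receptor, held 11 in inflachromene and 21 in DMSO. MET, the receptor gene of hepatocyte growth factor, had 13 in inflachromene and 16 in DMSO. In the MAPK list 5 of 27 genes had a peak, against 4.7 by length, and 1 of the 5 was shared, in RASAL2, a gene of the Ras GTPase-activating protein family, with 26 fragments in inflachromene and 31 in DMSO. SOS1 (17 fragments), an exchange factor gene for Ras, and SPRED2 (22 fragments), an inhibitor gene of the pathway, had peaks at internal starts in DMSO alone, as had MAP4K4 away from starts.

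Autophagy, lysosome and membrane traffic genes had a peak in 12 of 25, against 4.7, and 6 shared at least 1. LAMP1, encoding a lysosomal membrane glycoprotein, had 50 fragments in inflachromene and 82 in DMSO. VMP1, encoding an endoplasmic reticulum protein needed for autophagosome formation, had 5 peaks of which 3 were shared. The peak of VMP1 with the highest fold enrichment held 36 fragments in inflachromene and 37 in DMSO, and the one with the most fragments held 99 in inflachromene and 94 in DMSO. Glycolysis, hypoxia and metabolism genes had a peak in 12 of 27, against 4.1, and 8 shared at least 1. ACLY, which makes cytosolic acetyl-CoA, had 27 in inflachromene and 43 in DMSO at an internal start, and LDHA, a lactate dehydrogenase gene, had 41 in inflachromene and 55 in DMSO. PPARG, a nuclear receptor gene, had 33 in inflachromene and 34 in DMSO, and PDK1, a pyruvate dehydrogenase kinase gene, had 31 in DMSO alone.

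The TGF-beta and mesenchymal list had a peak in 7 of 27 genes, against 4.6. TGFBR1, a receptor gene, had 20 fragments in inflachromene and 25 in DMSO at an internal start, and TGFB2, a ligand gene, had 19 in inflachromene and 24 in DMSO. SMAD3, whose product carries the receptors' signal to the nucleus, had 2 peaks, of which the one with the higher fold enrichment, with 39 fragments, was in DMSO alone. In the epithelial and classical list 5 of 24 genes had a peak, against 2.7, and only KRT8, a keratin gene, had shared ones, with 29 in inflachromene and 38 in DMSO at the stronger. The peaks in KLF5 (17 fragments), GRHL2 and GATA4 (10 each), transcription factor genes of epithelia and endoderm, were in DMSO alone. In the NF-kB and inflammatory list 4 of 25 genes had a peak, against 3.4, and all 4 shared at least 1. In JAK1, a cytokine receptor kinase gene, 2 of 3 were shared, with 18 fragments in inflachromene and 27 in DMSO at the internal start.

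In 5 lists no more than 1 gene had a peak inside, each below its length value. The DNA replication list had 1 of 28, against 3.5, which was TYMS, the thymidylate synthase gene, with 14 fragments in inflachromene and 23 in DMSO. The mitosis list had 1 of 28, against 3.2, which was CDC25B, a phosphatase gene that activates cyclin-dependent kinases, with 21 in inflachromene and 19 in DMSO at an internal start. Cytosolic ribosomal proteins had 1 of 26, against 1.1, in RPS24, with 17 in inflachromene and 18 in DMSO. Long neuronal genes, with a median length of 1214 kb, had 1 of 27, against 7.8, in CTNNA3 with 13 fragments in DMSO alone. The list of acinar, islet, liver and immune markers, cell types other than the one studied, had 1 of 24, against 2.4, in SPI1, with 20 in DMSO alone.

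**Figure D5:**
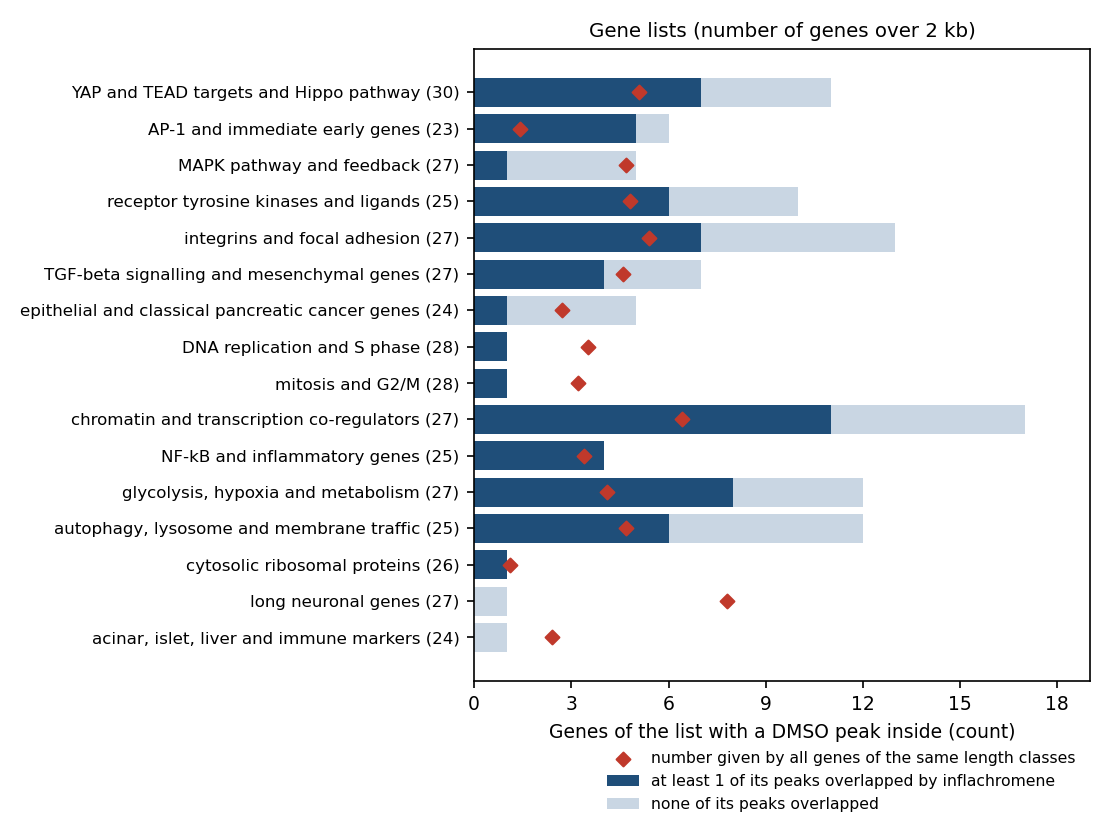
Number of genes with a DMSO peak inside (horizontal axis, stacked bars) in each of 16 gene lists, divided into genes with at least 1 shared peak and genes with none, with the number given by length alone as a diamond. The bar of the chromatin list reaches 17 against a diamond at 6.4, while that of the long neuronal genes stands at 1 against 7.8.

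Within 250 bp of a small RNA gene, antisense RNA gene or pseudogene lay 66 of the peaks inside genes, and 39 of these were shared. They included 35 at pseudogenes (18 shared), 12 at transfer RNA genes (7 shared) and 4 at small nuclear RNA genes (all shared). Among the last was that of RNU4ATAC, a minor spliceosome RNA gene in CLASP1, with 59 fragments in inflachromene and 69 in DMSO. At the transfer RNA gene TRA-AGC8-1 in AGBL5 there were 48 fragments in inflachromene and 25 in DMSO. These 2 were named after their values were seen. MicroRNA genes accounted for 10, of which 7 were shared. Over all peaks inside genes 50.4% were shared, and over all DMSO peaks 64.5%. The classes given here hold few peaks, and whether their shares differ from these was not tested.

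Mature sequences were listed for 9 of the 10 microRNA genes, and their 12 seeds, bases 2 to 8, all differed. Those of 3 genes at shared peaks (chr11:128522430-128522448, chr15:92904408-92904429 and chr2:207166402-207166422, all plus strand) are given first. They are followed by those of 3 genes at peaks in DMSO alone (chr16:87853906-87853925 and chr3:50273241-50273260, plus strand, and chr3:127575305-127575326, minus strand). All are RefSeq sequences of GRCh38.p14 with the seed in capitals. Of MIR6872 and MIR6825 only the sequence named 5p is printed.
hsa-miR-6090: gGGGAGCGaggggcggggc
hsa-miR-3175: cGGGGAGAgaacgcagugacgu
hsa-miR-7845-5p: aAGGGACAgggagggucgugg
hsa-miR-11401: uCACGUCUgcggcugucacg
hsa-miR-6872-5p: uCUCGCAUcaggaggcaagg
hsa-miR-6825-5p: uGGGGAGGuguggagucagcau

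The peak at MIR6090, in ETS1, held 37 fragments in inflachromene and 39 in DMSO, and that at MIR7845, in KLF7, held 42 in inflachromene and 41 in DMSO. ETS1 and KLF7 are transcription factor genes. The peak at MIR3175, in CHD2, was the one given above with 60 fragments in inflachromene and 64 in DMSO. MIR639, where DNAJB1 and TECR overlap, had 43 in inflachromene and 41 in DMSO, and MIR658, in ANKRD54, had 28 in inflachromene and 38 in DMSO. MIR4757, in OSR1, had 19 in inflachromene and 24 in DMSO, and MIR4785, in RBMS1, had 11 in inflachromene and 17 in DMSO. In DMSO alone were the peaks at MIR6825, in TPRA1 (35 fragments), at MIR6872, in SEMA3B (29), and at MIR11401, in SLC7A5 (20). Whether the peaks belong to the microRNA or to the gene around it cannot be told apart.

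The same rule was applied to the inflachromene list, where 1959 of 10836 peaks (18.1%) lay inside genes. Of these, 1649 (84.2%, 82.5 to 85.8) were overlapped by a DMSO peak and 310 (15.8%) were not, against 9.62% of all inflachromene peaks without a DMSO peak. The inflachromene peaks inside genes had a median of 21 fragments, 6.84-fold enrichment and 268 bp of width, close to the 20 fragments, 6.92-fold and 251 bp of the DMSO peaks inside genes.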

How the data were processed

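The data were 2 deposited peak lists, 1 of the inflachromene sample and 1 of the DMSO sample. The submitters' processing notes name hg38, MACS2 and deepTools 3.5.6, and the sources used here give no aligner, MACS2 version or handling of duplicates. In the deposited lists each peak has a position, an integer score (not used), a fold enrichment (the ratio of summit to local background) and p and q as −log10, all by the authors' peak caller. The authors called peaks once per sample, as far as the lists show. The lowest −log10 q was 3.015 in inflachromene and 3.018 in DMSO, from which a q threshold of 0.001 was inferred. The depth is not given in the lists.

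The summit pileup was recovered as the whole number that, with a background, gives both the deposited enrichment, (pileup + 1)/(background + 1), and the Poisson −log10 p within 0.001. This succeeded for all peaks on chromosomes 1 to 22 and X, and was tested on simulated data made with the same formulas. It assumes that the background came from the same library.

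Peaks were placed by summit against 19974 protein-coding and 18177 long non-coding RNA genes of RefSeq (GRCh38.p14, the same coordinates as hg38). Transcript starts and strand came from a promoter table that covers 15813 of the protein-coding genes, and 519 peaks inside genes lay in a gene without a row there. A genome was not used here, so the planned search for words in peak windows was not made, and the search at starts took its place. Python 3.11.15, pandas 2.3.3, NumPy 2.4.6, SciPy 1.17.1 and Matplotlib 3.10.9 were used.

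Peaks were named by host gene. The named ones are the 8 shared and the 8 DMSO-only peaks with the highest DMSO fold enrichment, the 8 genes with the most peaks, up to 4 genes per list by fold enrichment, the 4 lowest and 4 highest ratios at a mean pileup of 40 or more, the 2 peaks on each side of the 1000 bp limit, and peaks within 250 bp of microRNA genes. The 8 starts printed were taken from the strongest peaks at starts in each set. The peaks, lists and rules were chosen with earlier results of these data known, and the comparison by transcript starts and the words at starts were chosen after the lists had been seen. Alternatives covered the overlap rule, stricter thresholds, the distance from ends, the genes avoided, chromosome 19, the local background and the measure of strength. One of the 17 gene lists and 1 inflachromene peak are not reported here.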

Additional observations from a re-analysis of the deposited data

How the results depend on the processing

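The shared fraction of the peaks inside genes, 50.4%, was 45.9% when 50% of each peak had to overlap, 48.6% beyond 5000 bp from gene ends, 46.3% without peaks whose background exceeded 5 times the lowest, and 68.0% with both lists at the length of the shorter, where fewer DMSO peaks are tested. The median ratio was 0.892 with fold enrichment in place of pileup, against 0.846. With strength measured by −log10 p, the shared fraction was 21.1%, 84.6% and 99.4% in groups 1, 4 and 5, and by pileup it was 19.3%, 52.7% and 97.8% in groups 1, 3 and 5. Peaks inside genes at a start were 14.4%, 20.1% and 22.65% of all within 150, 500 and 1000 bp, against 17.7% within 250 bp, and these 3 distances were chosen after seeing the data. The remaining 33 values of the comparisons moved by less than their counting interval or 1.5 times, those without chromosome 19 included. Of 15 named shared peaks, only that of CACNG8 was no longer shared with 50% reciprocal overlap, and the same held with summits within 250 bp. The 10 DMSO-only peaks followed in this way were those named for the highest fold enrichment and those just inside the 1000 bp limit. None became shared with summits within 250 bp. With 50% reciprocal overlap none could, since they had no base in common with an inflachromene peak. No paired analysis was possible because each treatment had 1 sample and the labels number no replicates, which also left no sample to leave out. The low pileups, with a median of 20 fragments, limit what a missing peak shows, since a position just under the calling threshold is listed as absent.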

Other observations

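The 310 inflachromene peaks inside genes without a DMSO peak (15.8%, 14.2 to 17.5, of 1959) held a median of 15 fragments at 5.77-fold, 24 lay within 250 bp of a listed start, and 133 lay in a gene that also had a DMSO peak inside. The one with the highest fold enrichment was in BSN, encoding a scaffold protein of presynaptic terminals, with 27 fragments (17.8 to 39.3). Next was RASA1, a Ras GTPase-activating protein gene, with 22 fragments (13.8 to 33.3). LRRC27 had 33 fragments, USHBP1 24, the zinc finger genes ZNF407 and ZNF331 26 and 24, and LONRF3 19. None of these 7 summits lay within 250 bp of a listed start.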
